A study of Mus musculus with 4 samples.

Results

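The Hippo pathway genes described here are the rows of the count matrices with 10 symbols: the transcriptional coactivators Yap1 and Wwtr1, the DNA-binding partners Tead1, Tead2 and Tead4, the kinases Lats1 and Lats2, the angiomotins Amot and Amotl2, and Nf2, which encodes Merlin. All 10 were found, among 55453 genes in the files. RNA was counted in wells of 96-well plates that held material of mouse embryos. Each embryo had received a morpholino, a synthetic antisense oligomer used to block translation or splicing of a chosen RNA. The NKX1-2 wells received a morpholino against NKX1-2, a homeobox transcription factor, and the control wells received a control morpholino, so every group was injected and no uninjected embryo is among the samples. Blastocyst and morula wells filled 2 plates each, with 48 NKX1-2 and 48 control wells per plate. Strain, injected dose, time of collection and the embryo behind each well are not given in the labels, which name the source as single cells of embryo tissue.

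In the Hippo pathway, NF2 and the angiomotins recruit the LATS kinases to the cell cortex and to junctions, LATS1 and LATS2 phosphorylate YAP1 and TAZ, the product of Wwtr1, and the phosphorylated coactivators are kept out of the nucleus. Without that phosphorylation, YAP1 and TAZ enter the nucleus and bind TEAD proteins on DNA. In the mouse embryo, outer polarised cells have nuclear YAP1, and TEAD4 with YAP1 drives Cdx2 and Gata3 and trophectoderm fate, while inner cells hold YAP1 in the cytoplasm and express Sox2. Most of this control acts on the proteins, which these counts do not measure.

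TEAD proteins bind the letters GGAATG, or CATTCC on the other strand. A search of both strands for these letters, from 250 bases before to 50 bases after the RefSeq start (GRCm38.p6), found a match in 4 of the 8 genes with an entry, Yap1, Wwtr1, Lats2 and Amotl2. Amot, Lats1, Nf2 and Tead2 had none in this window, and Tead1 and Tead4 were not matched. Of all genes in the table, 16.6% held the letters in such a window, and of the tested genes 14.1%. The match lay 141 bases before the start of Yap1, 136 bases before a start of Wwtr1 and 65 bases before the start of Amotl2. In Lats2 it lay 5 bases after 1 of its starts. The 250 bases before the start are shown for both coactivators, which were lower in NKX1-2 than in control wells of both blastocyst plates, and for Amotl2, whose log2 ratio differed widely between the blastocyst plates, with the matched letters in capitals. They are chr9:8004597-8004846 on the minus strand for Yap1, chr3:57575911-57576160 on the minus strand for Wwtr1 and chr9:102717554-102717803 on the plus strand for Amotl2, each read 5′ to 3′ along the gene's strand. A match describes the letters and does not show binding.

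Yap1: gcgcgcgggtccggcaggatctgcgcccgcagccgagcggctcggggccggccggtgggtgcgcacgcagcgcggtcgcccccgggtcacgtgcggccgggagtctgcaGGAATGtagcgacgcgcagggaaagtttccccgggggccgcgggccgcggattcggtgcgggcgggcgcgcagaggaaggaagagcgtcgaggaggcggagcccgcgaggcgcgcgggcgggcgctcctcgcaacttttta

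Wwtr1: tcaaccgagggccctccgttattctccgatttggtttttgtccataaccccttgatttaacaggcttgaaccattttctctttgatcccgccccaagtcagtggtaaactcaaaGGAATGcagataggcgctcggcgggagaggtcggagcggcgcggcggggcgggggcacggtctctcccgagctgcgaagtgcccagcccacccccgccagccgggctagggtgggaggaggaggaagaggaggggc

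Amotl2: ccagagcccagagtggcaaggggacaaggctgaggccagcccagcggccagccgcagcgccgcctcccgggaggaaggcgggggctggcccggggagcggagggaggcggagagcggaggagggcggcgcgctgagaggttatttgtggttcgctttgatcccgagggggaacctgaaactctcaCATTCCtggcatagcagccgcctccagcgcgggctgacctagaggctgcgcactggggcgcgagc

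Of 384 wells, 368 passed the minimum of 2000 detected genes, and their counts were added up within each plate and morpholino. No well held a count of Nkx1-2, the targeted gene (0 of 384 wells). With 3 counts as the limit, its level could still reach 1.25 to 2.77 CPM, depending on the depth of the sum. Its RNA therefore checks no label, and a morpholino need not lower the RNA it binds. The 8 sums held 1066591 to 2398605 counts. Levels are given as CPM, counts scaled to library sizes with TMM factors, as mean ± SD over n = 2 plates. Nothing in the labels says that the 2 plates of a stage hold separate sets of embryos. The p-values of the stage comparisons measure the spread between these plates. Those of the morpholino comparisons measure how the difference between the morpholinos varied from plate to plate, pooled over both stages. Either spread may be technical. Exact intervals cover counting error only. In sums of this kind, fewer cells of a type and less RNA per cell cannot be told apart. Median counts per kept well ranged from 22391 to 37602 in the groups of blastocyst wells and from 41251 to 48648 in those of morula wells. Wells that held Xist but no Y-linked count made up 74.5% and 45.5% of NKX1-2 wells against 34.9% and 14.0% of control wells in blastocyst plates 1 and 2, and 20.8% and 48.9% of NKX1-2 wells against 52.1% and 56.2% of control wells in morula plates 1 and 2. Trophectoderm markers together took 1015 to 1090 CPM of the unscaled library sizes in NKX1-2 and 854 to 940 in control blastocyst sums, against 375 to 386 in NKX1-2 and 342 to 369 in control morula sums. Tfap2c alone took 191 and 193 CPM in NKX1-2 and 238 and 209 in control morula sums. Without it, the other 14 markers took 195 and 181 CPM in NKX1-2 and 131 and 132 in control morula sums. In blastocyst sums they took 1001 and 941 CPM in NKX1-2 and 777 and 859 in control wells. Inner cell mass markers took 2663 to 2732 CPM in NKX1-2 and 3225 to 3278 in control blastocyst sums, and 3577 to 3800 in NKX1-2 and 4143 to 4241 in control morula sums. Most of that sum was Dppa5a. Without it, the other 10 markers took 434 and 487 CPM in NKX1-2 and 426 and 472 in control blastocyst sums, and 1371 and 1515 CPM in NKX1-2 and 1416 and 1477 in control morula sums, so the gap between the morpholinos was carried by that 1 gene. Of the cumulus cell markers, Fshr, Has2, Ptx3 and Ptgs2 were at 0 in every sum, and Amhr2 held 12 to 33 counts in blastocyst sums and 159 to 223 in morula sums. The part of cell makeup and of sex class in the results below was not tested beyond the values given beside them.

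Tead4 was the most abundant of the 10 transcripts per kilobase of exon in all 4 groups, and the kinase transcripts were the least abundant or close to it. Tead4 reached 20.4 ± 0.267 CPM per kb in NKX1-2 and 23.5 ± 1.59 in control blastocyst sums, and 89.8 ± 3.72 in NKX1-2 and 92.0 ± 5.34 in control morula sums. In control blastocyst sums the order was Tead4, Wwtr1 with 16.6 ± 1.74, Amot with 10.8 ± 4.30 and Yap1 with 6.65 ± 0.861 CPM per kb, and Lats1 was last with 0.869 ± 0.403. In control morula sums Tead4 was followed by Yap1 with 18.2 ± 0.684 CPM per kb, Wwtr1 with 12.9 ± 1.57, Nf2 with 7.47 ± 1.96 and Amot with 5.62 ± 0.343. The plate values of these 5 genes did not overlap between neighbours in that order. Amotl2, Tead1, Lats2, Tead2 and Lats1 followed between 2.49 and 0.997 CPM per kb, and of these neighbours only Tead2 and Lats1 had plate values that did not overlap. The lengths are the union of annotated exons, and how reads were assigned to genes is not given in the sources used here. For Lats2, 42.4% of the exonic length also belongs to Gm49361 on the same strand, which was listed at 0 in every sum, so the Lats2 level is uncertain. Yap1 shares 1.25% of its exonic length with Gm20416 and Tead2 0.272% with Cd37, both on the opposite strand, and the use of strand in counting is not stated.

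**Figure D1:**
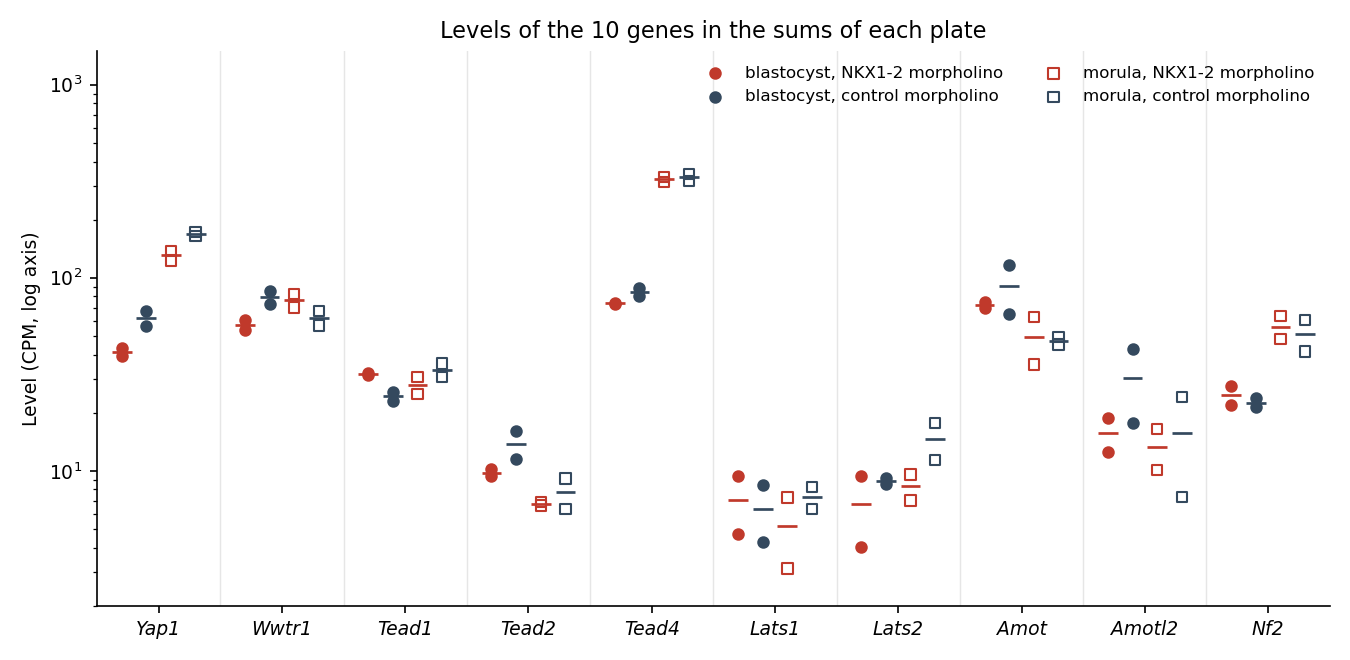
Level of each gene in the 8 sums, on a log axis of CPM. Filled circles are blastocyst and open squares morula plates, red is the NKX1-2 and dark blue the control morpholino, 2 points per group are the 2 plates and the line is their mean. Tead4 sits above 300 CPM in morula sums and at 72.9 to 88.5 CPM in blastocyst sums, while Lats1 stays between 3.11 and 9.40 CPM in all sums.

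Most wells held a count of the abundant members. A Tead4 count was found in 80.2% of 177 blastocyst wells (exact 95% interval 73.6 to 85.8) and in 97.9% of 191 morula wells (94.7 to 99.4). For Yap1 the shares were 68.4% of blastocyst and 97.9% of morula wells, for Wwtr1 76.8% and 89.5%, and for Amot 80.2% and 81.2%. Since morula wells were deeper, each well was also thinned to 10000 counts, which kept 175 blastocyst and 190 morula wells. At that depth Tead4 was found in 41.7% of blastocyst wells (34.3 to 49.4) and in 92.6% of morula wells (87.9 to 95.9), and Yap1 in 32.0% (25.2 to 39.5) and 74.2% (67.4 to 80.3). Nf2, the membrane scaffold of the pathway, was found in 20.6% of thinned blastocyst wells (14.8 to 27.3) and in 44.7% of thinned morula wells (37.5 to 52.1). The thinned share of Amot was 48.0% in blastocyst wells (40.4 to 55.7) and 38.9% in morula wells (32.0 to 46.3), and the intervals overlapped. Lats1 and Lats2 were found in 5.14% of thinned blastocyst wells each, and in 5.79% and 8.95% of thinned morula wells. Wells are not replicates, so these shares carry no test, and no well type that lacks these RNAs is known to set a background share.

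**Figure D2:**
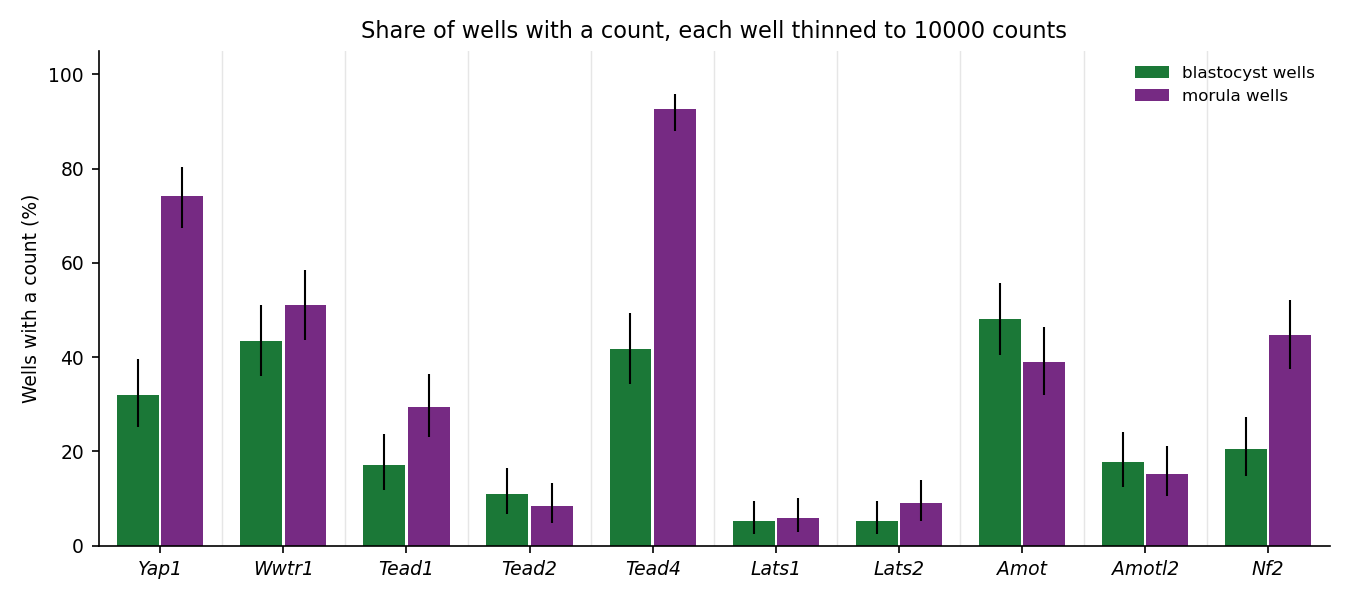
Percent of wells with at least 1 count of each gene after every well was thinned to 10000 counts, for 175 blastocyst wells (green, left) and 190 morula wells (purple, right), with both morpholinos and both plates of a stage together. Vertical lines are exact 95% intervals for counting error. The bars of Yap1, Tead4 and Nf2 are lower in blastocyst wells, with intervals that do not overlap, while those of the other 7 genes have overlapping intervals.

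Yap1 and Wwtr1 encode paralogous coactivators, and their share of the coactivator RNA differed between stages and, in morula plates only, between morpholinos. In morula plates, Yap1 made up 63.8% and 62.5% of the Yap1 and Wwtr1 counts in NKX1-2 wells and 72.1% and 74.4% in control wells. Those shares rest on 484 to 569 counts per sum, and the exact intervals of NKX1-2 (58.4 to 68.0 at most) and control wells (68.2 to 78.2 at most) did not overlap. The intervals leave out the spread between plates, and neither gene passed between the morpholinos in the morula. In blastocyst plates the Yap1 share was 39.4% and 44.8% in NKX1-2 wells and 44.1% and 43.2% in control wells, with intervals that overlapped. Among the Tead genes, Tead4 held 63.7% to 70.0% of the counts in blastocyst sums and 87.9% to 90.9% in morula sums. Tead1 held 27.4% and 27.6% in NKX1-2 blastocyst sums (40 of 146 and 48 of 174 counts) and 24 of 123 and 30 of 150 counts in control blastocyst sums, against 6.81% to 9.16% in morula sums. Tead3, which is outside the 10 genes, had 0 to 12 counts per sum. Amot held 71.7% to 82.1% of the angiomotin counts in blastocyst sums and 64.5% to 85.7% in morula sums. The angiomotin share thus varied more between the 2 morula plates than between morpholinos within either of them.

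**Figure D3:**
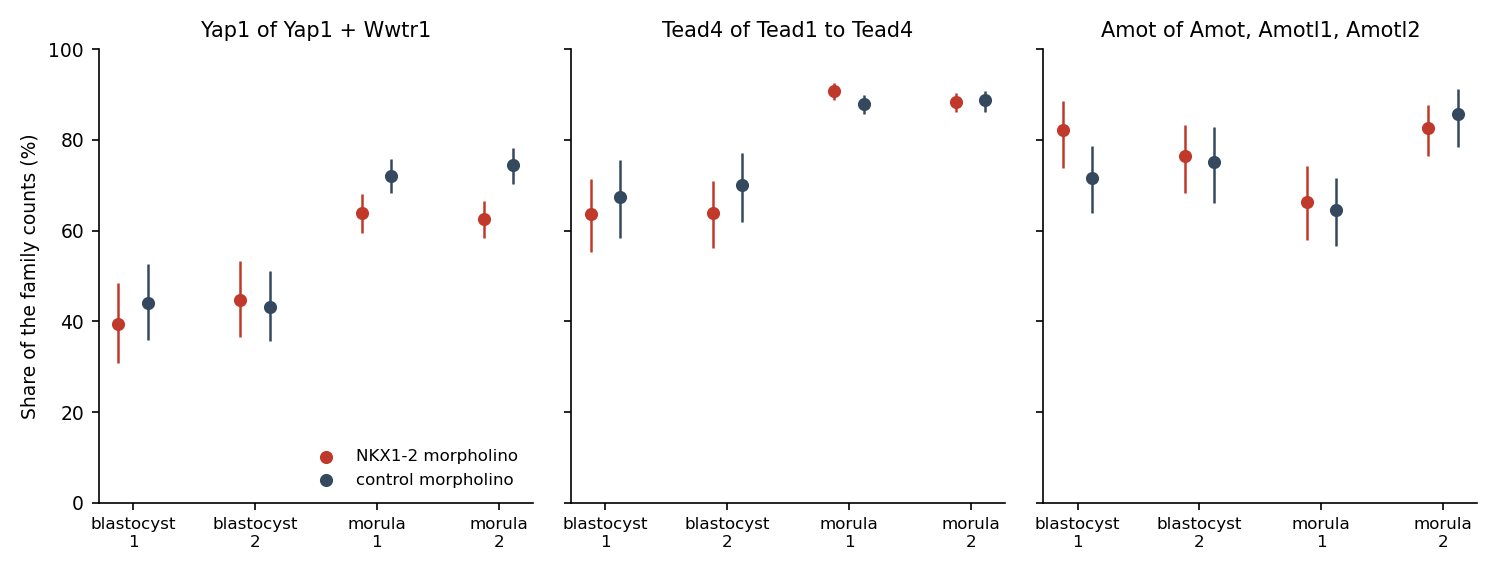
Share of the counts of a gene family, in percent, taken by Yap1 (left), Tead4 (middle) and Amot (right) in each plate, with NKX1-2 wells in red left of control wells in dark blue. Points are sums of 1 plate and morpholino and lines are exact 95% intervals for counting error. In both morula plates the Yap1 share is lower in NKX1-2 wells, and the Tead4 share is lower in every blastocyst than in every morula sum.

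The comparison of stages asked how the pathway's transcripts differ once the trophectoderm has formed. Tead4, Yap1 and Nf2 were lower in blastocyst than in morula sums, in NKX1-2 and in control wells alike, and Amot passed as higher in control wells. This must be read against a large background. In NKX1-2 wells 45.9% of 10221 tested genes passed an adjusted p of 0.05, 21.9% higher and 24.0% lower, and of the 10 members 0 were higher and 3 were lower. In control wells 41.7% of 9577 genes passed, 20.1% higher and 21.6% lower, and of the members 1 was higher and 3 were lower. The share of members called is thus near that of all genes. The median log2 fold change of the members was -0.072 in NKX1-2 and -0.284 in control wells, against -0.022 in NKX1-2 and -0.01 in control wells over all genes tested. All 10 members passed the filter on low counts in each comparison as reported. In wells that held Xist but no Y-linked count, Lats1 was filtered out of every fit, Tead2 of both stage fits and Lats2 of the stage fit of NKX1-2 wells. The plates of the 2 stages also differed in what was counted. Pseudogenes took 3.55% and 3.86% of the counts in blastocyst plates against 6.82% and 5.66% in morula plates, and Gm42418 took 3.56% and 3.26% against 0%. A difference between stages therefore cannot be told apart from a difference in how their plates were made or counted.

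Tead4, at chr6:128224288-128300823, is the TEAD family member that the trophectoderm requires. Its level was 72.9 and 74.2 CPM in NKX1-2 blastocyst sums and 333 and 314 CPM in NKX1-2 morula sums. Control wells gave 88.5 and 80.4 CPM in blastocyst and 345 and 318 CPM in morula sums. Every blastocyst sum was thus below every morula sum by a wide gap. The log2 fold change was -2.13 (SE 0.16, adjusted p = 8.15e-09) in NKX1-2 and -1.96 (SE 0.20, adjusted p = 3.46e-08) in control wells by edgeR's quasi-likelihood test with Benjamini-Hochberg adjustment. Yap1, at chr9:7931999-8004596, had 39.2 and 43.5 CPM in NKX1-2 blastocyst sums and 123 and 138 CPM in NKX1-2 morula sums. In control wells it had 67.2 and 55.9 CPM in blastocyst and 173 and 164 CPM in morula sums. The groups of the stages again did not overlap. The difference was -1.65 (SE 0.20, adjusted p = 3.46e-06) in NKX1-2 and -1.45 (SE 0.22, adjusted p = 1.31e-05) in control wells. Both genes passed in each of the 14 alternative settings of each stage comparison.

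Nf2, at chr11:4765845-4849536, had 21.9 and 27.4 CPM in NKX1-2 blastocyst sums and 63.2 and 48.2 CPM in NKX1-2 morula sums. In control wells it had 21.3 and 23.7 CPM in blastocyst and 60.4 and 41.5 CPM in morula sums, so the stages did not overlap. The log2 fold change was -1.16 in both (SE 0.27, adjusted p = 0.00168 in NKX1-2 wells, and SE 0.31, adjusted p = 0.00437 in control wells, edgeR). The NKX1-2 call was lost without blastocyst plate 1 (adjusted p = 0.0757) and the control call without morula plate 1 (adjusted p = 0.127). In wells that held Xist but no Y-linked count, neither passed, at -0.80 (SE 0.39, adjusted p = 0.125) in NKX1-2 and -1.23 (SE 0.51, adjusted p = 0.105) in control wells. Amot, at chrX:145446425-145505181, encodes the angiomotin that couples junctions to LATS and YAP1. It had 75.2 and 69.6 CPM in NKX1-2 blastocyst sums and 35.6 and 62.6 CPM in NKX1-2 morula sums. In control wells it had 116 and 65.1 CPM in blastocyst and 45.2 and 49.3 CPM in morula sums. Control plate 1 of the blastocyst was thus far above plate 2, although both were above the morula plates. The difference was 0.56 (SE 0.25, adjusted p = 0.0758) in NKX1-2 and 0.93 (SE 0.27, adjusted p = 0.0077) in control wells. Without blastocyst plate 1 the control difference was 0.47 (adjusted p = 0.182), and without morula plate 1 its adjusted p was 0.0828. Amot is X-linked and the share of wells that held Xist but no Y-linked count differed between the groups. Within those wells the control difference was 1.08 (SE 0.37, adjusted p = 0.0583). They numbered 15 and 6 control wells in blastocyst plates 1 and 2, and 25 and 27 in morula plates 1 and 2. The part of sex class in the Amot difference was not tested. In NKX1-2 wells Amot passed without morula plate 2 (0.99, adjusted p = 0.0111).

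The other 6 members did not pass between stages. Wwtr1 had 60.3 and 53.5 CPM in NKX1-2 and 85.3 and 73.5 CPM in control blastocyst sums, against 70.1 and 82.4 CPM in NKX1-2 and 67.2 and 56.6 CPM in control morula sums. Its stage difference was -0.42 (95% interval -0.84 to -0.01, adjusted p = 0.11) in NKX1-2 wells and 0.36 (-0.11 to 0.83, adjusted p = 0.233) in control wells. Tead1 was at 31.3 and 32.1 CPM in NKX1-2 and 25.6 and 23.0 CPM in control blastocyst sums, against 24.9 and 30.7 CPM in NKX1-2 and 35.9 and 30.6 CPM in control morula sums. The signs of Tead1 were opposite too, 0.19 (-0.35 to 0.73) in NKX1-2 and -0.45 (-1.07 to 0.17) in control wells. Tead2 lay above 0 in both, at 0.53 (-0.31 to 1.37) and 0.82 (-0.07 to 1.70), on 13 to 20 counts per sum. For Lats1 the interval ran from -0.65 to 1.46 in NKX1-2 and from -1.14 to 0.90 in control wells, and for Lats2 from -1.29 to 0.62 and from -1.57 to 0.17. These intervals include a 2-fold difference in 1 direction or the other, so a difference of that size in the kinases is not excluded. Amotl2 differed by 0.25 (-0.50 to 1.00) in NKX1-2 and 0.89 (-0.14 to 1.91) in control wells, where its plates were far apart. The control difference of Amotl2 passed without morula plate 1 (1.98, adjusted p = 0.00403) and without blastocyst plate 2 (1.45, adjusted p = 0.00138).

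**Figure D4:**
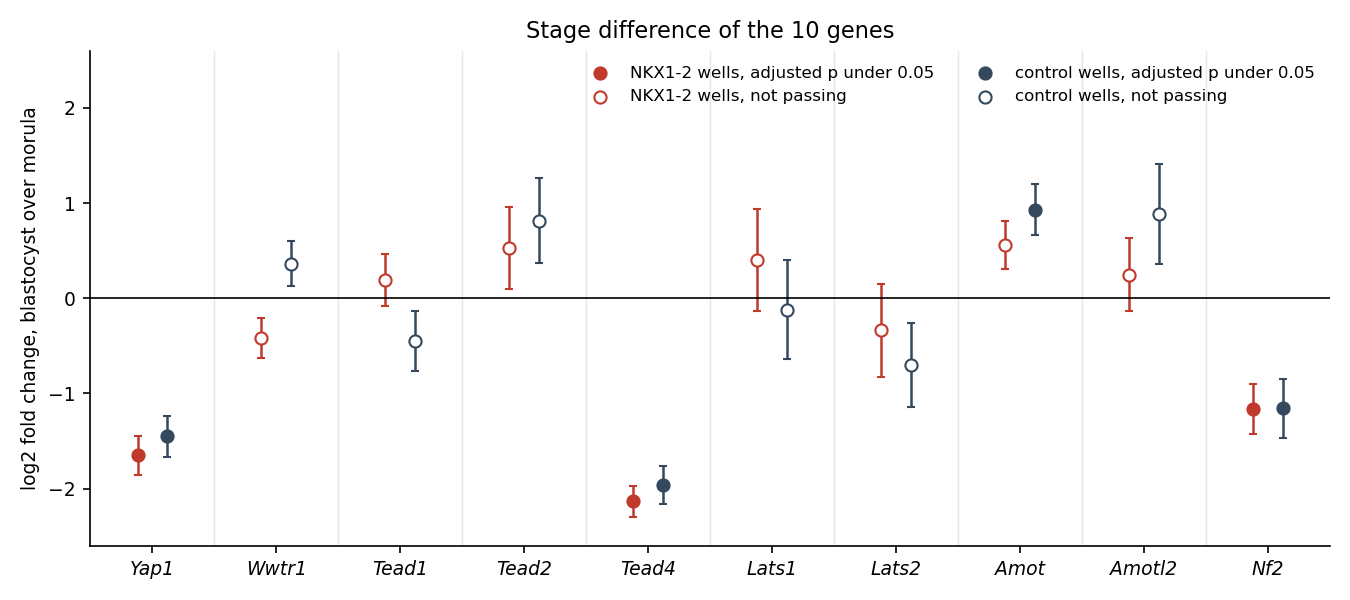
Log2 fold change of blastocyst over morula for each gene, with NKX1-2 wells in red left of control wells in dark blue. Bars are standard errors of the edgeR fits of 4 sums each, and filled points passed an adjusted p of 0.05. Tead4, Yap1 and Nf2 lie below 0 with filled points in both, and Amot has a filled point above 0 in control wells only, while its NKX1-2 value of 0.56 has an adjusted p of 0.0758.

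The genes around the 10 members were read from lists of pathway partners and outputs. In NKX1-2 wells, 21.9% of all tested genes were called higher and 24.0% lower between stages, and in control wells 20.1% and 21.6%. Of the embryo TEAD4 targets, 3 of 5 were higher in blastocyst sums of NKX1-2 wells and 4 of 5 in those of control wells, none lower. Cdx2 is counted in both. Krt18, an epithelial keratin of the trophectoderm, differed by 3.37 (SE 0.23, adjusted p = 1.21e-09) in NKX1-2 and by 2.63 (SE 0.26, adjusted p = 2.65e-08) in control wells. Gata3 differed by 1.90 (SE 0.25) and 3.22 (SE 0.34), and Cdx2, the transcription factor of trophectoderm fate, by 1.40 (SE 0.51, adjusted p = 0.031) and 2.13 (SE 0.56, adjusted p = 0.00396). Cdx2 reached the filter's minimum in both sums of the blastocyst only, on 6 and 16 counts in NKX1-2 and 3 and 9 counts in control morula sums. Its call is therefore no support for the list. Krt8 differed by 0.53 (adjusted p = 0.088) in NKX1-2 wells and by 0.79 (adjusted p = 0.0247) in control wells. Sox2, which TEAD4 and YAP1 repress, did not pass, at 0.71 (adjusted p = 0.264) and 1.24 (adjusted p = 0.159). Krt18 and Gata3, which reached the filter's minimum in both stages, were thus higher in the sums in which Tead4 and Yap1 were lower. Of the polarity and adhesion genes, 6 of 12 were higher and 0 lower in both NKX1-2 and control wells. Ctnnb1, which encodes beta-catenin, differed by 2.31 (SE 0.25) in NKX1-2 and 2.41 (SE 0.28) in control wells, and Ezr, the apical actin linker ezrin, by 1.70 (SE 0.28) and 2.88 (SE 0.36). Ctnna1, Rhoa, Cdh1 and Pard3 were the others. The median over all 12 tested genes of the list was 0.527 in NKX1-2 and 0.73 in control wells.

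Of the other core and upstream Hippo genes, 2 of 14 were higher and 2 lower in NKX1-2 wells. In control wells 2 of 14 were higher, Ptpn14 among them, and 1 lower. The shares over all tested genes were 21.9% higher and 24.0% lower in NKX1-2 wells, and 20.1% and 21.6% in control wells. Against these shares, the counts of calls in this and the next 2 lists do not set them apart. Map4k4, a kinase that activates LATS, was higher in both, by 1.04 (SE 0.33, adjusted p = 0.0145) in NKX1-2 and by 1.18 (SE 0.33, adjusted p = 0.00659) in control wells. In NKX1-2 wells, the kinase Stk4 was higher (0.87, adjusted p = 0.0116), and Ajuba, a LIM protein that binds LATS kinases, and the LATS cofactor Mob1b were lower (-1.50 and -0.74). In control wells, the kinase Taok1 was lower (-0.63, adjusted p = 0.0458). Ptpn14, a phosphatase that binds YAP1, passed as higher there, on 7 and 10 counts in blastocyst sums and 0 counts in both morula sums. It reached the filter's minimum through the blastocyst sums alone, so it had to differ once tested, and its call is no support for the list. The STRIPAK complex, a phosphatase assembly that dampens Hippo kinases, had 3 of 11 genes higher and 1 lower in NKX1-2 wells, and 3 higher and 2 lower in control wells. Its scaffold Strn was higher in both, by 1.09 in NKX1-2 and 1.00 in control wells. Among the YAP and TEAD partners, Ywhaz, a 14-3-3 protein of the kind that retains phosphorylated YAP1, was higher, by 1.00 (SE 0.15) in NKX1-2 and 1.42 (SE 0.18) in control wells. Sfn, another 14-3-3 protein, was lower, at -0.78 (SE 0.14) in NKX1-2 and -0.61 (SE 0.16) in control wells. In all, 2 of 12 partners were higher and 3 lower in NKX1-2 wells, and 2 higher and 2 lower in control wells.

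The YAP target signature, known from cultured cells, was sparse, with 44.7 to 82.1 CPM for its 20 genes together, and Fjx1, Ccdc80, Nuak2 and Rbms3 at 0 in every sum. Only 4 genes of it were tested between stages. In NKX1-2 wells, Ccn2 was higher (2.65, SE 0.60, adjusted p = 0.00158) on 10 and 11 counts in blastocyst against 4 and 2 counts in morula sums, and Ccn1 was lower (-1.36, SE 0.29, adjusted p = 0.00106). Igfbp3 also passed as lower there, with 0 and 1 counts in blastocyst and 16 and 13 counts in morula sums. In control wells, Dock5 (1.44, adjusted p = 0.0171) and Ptpn14 were higher and Igfbp3 was lower (-1.45, adjusted p = 0.0492). Ccn2, Ptpn14 and Dock5 reached the filter's minimum in both sums of the blastocyst only, and Igfbp3 in those of the morula only, so these calls say little about the signature. Ccn1 reached it in both stages.

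The comparison of morpholinos asked whether the pathway's transcripts differed when NKX1-2 was targeted. None of the 10 members passed an adjusted p of 0.05 in the blastocyst or in the morula. In the blastocyst 0.727% of 10873 genes passed, 0 of 10 members, and at an unadjusted p under 0.05 there were 2 members, Yap1 and Wwtr1. In the morula 0.552% of the genes passed, again 0 of 10 members, and at an unadjusted p under 0.05 there were 2 members, Yap1 and Lats2. DESeq2 called 0 of the 6 members to which it gave an adjusted p, and gave none to Tead2, Lats1, Lats2 and Amotl2. Over all genes, 1491 and 1159 had an unadjusted p under 0.05 in blastocyst and morula. The members' median log2 fold change was -0.37 in the blastocyst and -0.177 in the morula, against -0.003 and -0.004 over all genes tested, and 7 of 10 members lay below 0 in each stage. Several of these were above 0 in a plate. In the blastocyst these were Lats2 (0.13), Amot (0.09) and Amotl2 (0.08). In the morula they were Tead1 (0.01), Tead2 (0.11), Lats1 (0.17) and Amotl2 (0.42). At a background of 0.727% and 0.552%, a count of 0 among 10 genes does not set the members apart from other genes.

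Yap1 was lower in NKX1-2 than in control wells in every plate. In blastocyst plates it had 39.2 and 43.5 CPM in NKX1-2 and 67.2 and 55.9 CPM in control wells, and in morula plates 123 and 138 CPM in NKX1-2 and 173 and 164 CPM in control wells. Within each stage, both NKX1-2 values were below both control values. The log2 ratio was -0.76 (exact 95% counting interval -1.34 to -0.22) and -0.35 (-0.87 to 0.14) in blastocyst plates 1 and 2, and -0.49 (-0.70 to -0.27) and -0.25 (-0.47 to -0.04) in morula plates 1 and 2. In the edgeR fit of all 8 sums, the fold change was -0.56 (SE 0.21, adjusted p = 0.25) in the blastocyst and -0.37 (SE 0.15, adjusted p = 0.374) in the morula. On average over both stages it was -0.46 (SE 0.13, 95% interval -0.72 to -0.21, adjusted p = 0.068), where 2.90% of all genes passed, 1.56% higher and 1.33% lower, and 0 of 10 members. The call depended on the fit. With the morula plates alone the morula value was again -0.37, with an SE of 0.11 and an adjusted p of 0.0197. In that fit 834 of all genes passed, against 60 in the fit of all 8 sums, so the pass is not particular to Yap1. Without blastocyst plate 1 and without blastocyst plate 2 the morula value was also -0.37. The average was -0.58 without blastocyst plate 2. With no filter on low counts it passed (-0.45, adjusted p = 0.0482), in a fit in which 532 of all genes passed, against 315 with the filter. Its effect lay below 0 in all 15 alternatives of each stage. The effect did not pass as different between the stages (-0.19, adjusted p = 0.947).

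Wwtr1, at chr3:57455649-57575910, went in opposite directions in the 2 stages. In blastocyst plates it had 60.3 and 53.5 CPM in NKX1-2 and 85.3 and 73.5 CPM in control wells, with log2 ratios of -0.49 (-0.97 to -0.03) and -0.45 (-0.90 to -0.02). In morula plates it had 70.1 and 82.4 CPM in NKX1-2 and 67.2 and 56.6 CPM in control wells, with log2 ratios of 0.06 (-0.25 to 0.38) and 0.53 (0.22 to 0.87). NKX1-2 and control values did not overlap within either stage, but those of morula plate 1 were nearly equal. The fitted fold change was -0.48 (SE 0.21, adjusted p = 0.317) in the blastocyst and 0.30 (SE 0.18, adjusted p = 0.604) in the morula. The difference between the stages was -0.78 (SE 0.27, adjusted p = 0.589), where 0.0184% of all genes passed, 0.00920% higher and 0.00920% lower, and 0 of 10 members. Of all genes tested, 5.68% were lower in both blastocyst plates and higher in both morula plates, as Wwtr1 was, and of the 10 members only Wwtr1. The opposite pattern, higher in both blastocyst plates and lower in both morula plates, was found for 5.28% of all genes and for no member.

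**Figure D5:**
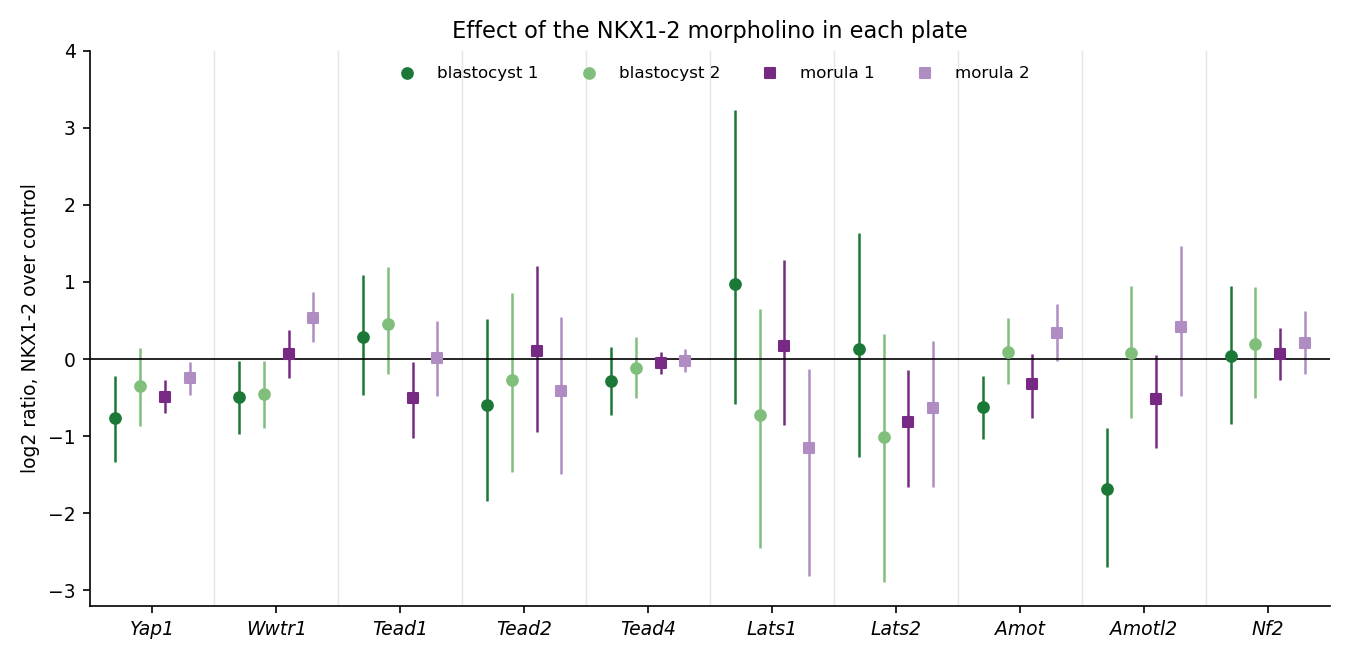
Log2 ratio of NKX1-2 over control wells for each gene in each plate, computed from log CPM. Circles are blastocyst and squares morula plates, and lines are exact 95% intervals for counting error. Yap1 is below 0 in all 4 plates, Wwtr1 is below 0 in both blastocyst plates and above 0 in both morula plates, and Amotl2 is far below 0 in blastocyst plate 1 only, at -1.68.

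Of the TEAD genes, Tead4 was nearly equal between the morpholinos. Its log2 ratios were -0.28 (-0.72 to 0.16) and -0.11 (-0.51 to 0.28) in blastocyst plates and -0.05 (-0.19 to 0.09) and -0.02 (-0.17 to 0.13) in morula plates, which rest on 696 to 868 counts per morula sum. The fitted value was -0.19 (95% interval -0.52 to 0.14) in the blastocyst and -0.03 (-0.29 to 0.22) in the morula. Tead4 and Yap1 were the 2 members lower in all 4 plates, which held for 11.8% of all genes, and Nf2 was the 1 member higher in all 4, which held for 12.2%. In wells that held Xist but no Y-linked count, the blastocyst value of Tead4 was 0.12. Tead1, at chr7:112679318-112906807, had 31.3 and 32.1 CPM in NKX1-2 and 25.6 and 23.0 CPM in control blastocyst wells, higher in both plates. In the morula it had 24.9 and 30.7 CPM in NKX1-2 and 35.9 and 30.6 CPM in control wells, lower in plate 1 and equal in plate 2. The fitted values were 0.39 (SE 0.29, adjusted p = 0.585) in the blastocyst and -0.26 (SE 0.23, adjusted p = 0.768) in the morula. Tead2, at chr7:45215753-45233644, lay at 10.2 and 9.36 CPM in NKX1-2 and 16.0 and 11.5 CPM in control blastocyst wells, and its fitted value of -0.47 had an interval from -1.30 to 0.37.

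The kinase transcripts were too rare for a firm statement. Lats1, at chr10:7681214-7716460, had 12 and 7 counts in NKX1-2 and 4 and 11 counts in control blastocyst sums, and 19 and 8 counts in NKX1-2 and 15 and 18 counts in control morula sums. Its plates disagreed in direction within both stages. Lats2, at chr14:57689662-57758388, had 12 and 6 counts in NKX1-2 and 8 and 12 counts in control blastocyst sums, and 25 and 18 counts in NKX1-2 and 42 and 25 counts in control morula sums. In the morula, Lats2 was lower in NKX1-2 wells in both plates, by log2 ratios of -0.82 (-1.66 to -0.14) and -0.63 (-1.66 to 0.23). The fitted morula value was -0.80 (SE 0.36, adjusted p = 0.432) and the blastocyst value -0.48 (SE 0.51, adjusted p = 0.725). Its sequence shared with Gm49361 makes the Lats2 level uncertain.

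For both angiomotins, the 2 plates of each stage disagreed in the direction of the difference between the morpholinos. Amotl2, at chr9:102716672-102733418, had 12.5 and 18.7 CPM in NKX1-2 and 42.6 and 17.6 CPM in control blastocyst wells. Control plate 1 stood apart from the other 3 sums. Its log2 ratio was -1.68 (-2.70 to -0.90) in plate 1 and 0.08 (-0.76 to 0.95) in plate 2. In plate 1, 21.3% of 47 NKX1-2 wells and 53.5% of 43 control wells held an Amotl2 count, and the highest control well held 5 of the 40 counts. The fitted value was -0.83 (SE 0.42, adjusted p = 0.41), and it was -1.76 (adjusted p = 0.00391) without blastocyst plate 2 and 0.10 without blastocyst plate 1. In the morula Amotl2 had 16.5 and 10.1 CPM in NKX1-2 and 24.1 and 7.30 CPM in control wells, and plate 1 was above plate 2 in both. Amot had 75.2 and 69.6 CPM in NKX1-2 and 116 and 65.1 CPM in control blastocyst wells, with log2 ratios of -0.62 (-1.04 to -0.22) in plate 1 and 0.09 (-0.33 to 0.53) in plate 2. In morula plates the log2 ratios of Amot were -0.33 (-0.76 to 0.07) and 0.34 (-0.02 to 0.71). Its fitted values were -0.27 (SE 0.23, adjusted p = 0.649) in the blastocyst and 0.02 (SE 0.22, adjusted p = 0.993) in the morula. Nf2 was equal or slightly higher in NKX1-2 wells, at 0.14 in the blastocyst (95% interval -0.41 to 0.69) and 0.14 in the morula (-0.23 to 0.50).

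Around these members, few genes of the pathway lists passed between the morpholinos. Over all genes tested, 0.727% passed in the blastocyst and 0.552% in the morula. Against these shares, a count of 0 does not set a list of this size apart. Of the other core and upstream Hippo genes 0 of 17 passed in either stage, with medians of -0.313 in the blastocyst and 0.018 in the morula and with 2 and 0 genes at an unadjusted p under 0.05. The STRIPAK complex (0 of 11), the YAP and TEAD partners (0 of 12) and the YAP target signature (0 of 6) had no call in either stage by edgeR, with 3, 3 and 1 genes at an unadjusted p under 0.05 in the blastocyst and 0, 1 and 0 in the morula. The 6 tested genes of the YAP target signature all lay below 0 in the blastocyst (median -0.765) and 3 of 6 in the morula (median -0.278). Some of these values rest on few counts. Igfbp3 had 0 and 1 counts in NKX1-2 and 4 and 3 counts in control blastocyst sums. Ccn2 had log2 ratios of -0.74 in blastocyst plate 1 and 0.23 in plate 2. In blastocyst plates 1 and 2, Ccn1 had log2 ratios of -0.53 and -0.64 and Dock5 of -0.80 and -0.85. The counting intervals of these 4 values included 0. Whether the output of the pathway was lower was not tested. Of the embryo TEAD4 targets, 0 of 5 passed in the blastocyst and 1 of 5, Gata3, was higher in the morula. Gata3 had 122 and 84.3 CPM in NKX1-2 and 58.6 and 78.9 CPM in control blastocyst wells, and 23.0 and 32.3 CPM in NKX1-2 and 9.29 and 5.48 CPM in control morula wells. Its fold change was 0.55 (SE 0.25, adjusted p = 0.362) in the blastocyst and 1.87 (SE 0.35, adjusted p = 0.0278) in the morula. Cdx2 (-0.08 in the blastocyst, 0.66 in the morula), Krt8 (0.20, 0.43), Krt18 (0.25, -0.48) and Sox2 (0.51, 0.93) did not pass, with adjusted p-values from 0.499 to 0.967. Of the polarity and adhesion genes, 0 of 12 passed in either stage, and on average over both stages Prkcz, an atypical protein kinase C of the apical domain, was lower (-0.63, SE 0.14, adjusted p = 0.0235). Prkcz had 56.4 and 54.2 CPM in NKX1-2 and 82.1 and 92.6 CPM in control blastocyst wells, and 44.5 and 39.7 CPM in NKX1-2 and 57.0 and 70.7 CPM in control morula wells. Of the trophectoderm markers, 2 of 12 were higher on average over both stages, Gata3 and the fatty acid binding protein Fabp3 (0.46, adjusted p = 0.0489). The log2 ratios of Fabp3 were -0.06 and 0.16 in blastocyst plates and 0.97 and 0.68 in morula plates. Of the inner cell mass markers, 1 of 11 passed, the pluripotency-associated Dppa5a, which was lower (-0.33, adjusted p = 0.0122). Of these 11 markers, 5 lay above 0 and 6 below. Over all genes tested, 2.90% passed in this average of the stages.

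The members were followed across clusters of the 177 blastocyst wells, made without the 10 genes, as a description with no test. Of 7 clusters, 1 was named, a trophectoderm-like cluster of 31 wells with Krt18, Fabp3 and Krt8 among its 10 leading genes. It held 8 NKX1-2 and 9 control wells of plate 1, and 5 NKX1-2 and 9 control wells of plate 2. At a resolution of 1.5 the cluster so named held 17 wells, 8 NKX1-2 wells of plate 1 and 5 NKX1-2 and 4 control wells of plate 2. The other clusters at the resolution of 1.0 stayed unnamed, and 3 of them held wells of 1 morpholino only, 30, 15 and 11 wells. In the trophectoderm-like cluster Tead4 was at 85.0 and 91.8 CPM (without TMM) in plates 1 and 2, Tead1 at 37.1 and 49.1, Wwtr1 at 50.1 and 46.9, Yap1 at 52.3 and 23.5, Amot at 52.3 and 74.7, and Amotl2 at 28.3 and 21.3. Sox2 had 0 and 1 counts there. Tead1 lay between 33.6 and 49.1 CPM in both plates of that cluster and of both clusters that held NKX1-2 wells only. These values rest on 4 to 23 counts each, and 1 of those clusters held just 2 wells of plate 2. In both plates of the other 4 clusters Tead1 lay between 12.9 and 24.0 CPM. The largest of these 4 was also mostly NKX1-2 wells. It held 10 NKX1-2 and 2 control wells of plate 1, and 23 NKX1-2 and 0 control wells of plate 2. Yap1 ranged from 23.5 to 65.2 CPM over all clusters and plates.

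For each member, the gene with the most similar level over the 8 sums was found among genes that average at least 20 CPM. Tead4 was most like Bcat2 (Pearson r = 0.999), Nf2 like Gm19810 (0.996), Yap1 like Oaz2 (0.994), Tead2 like Pdgfa (0.984) and Amot like Lrrfip2 (0.974). Lats2 was most like Rpusd4 (0.956), Wwtr1 like Rc3h1 (0.951), Amotl2 like Eri1 (0.949), Tead1 like Arid1a (0.945) and Lats1 like Acd (0.917). These values are descriptive and carry no p, since the 8 sums share plates and stages. For genes that differ by stage such likeness is common, and 863 genes correlated above 0.9 with Tead4 and 680 with Yap1, against 2 with Wwtr1 and 1 with Lats1.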

How the data were processed

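The deposited values are raw counts, whole numbers for each gene in each well, which the authors left unnormalised, and a deposited list gives the morpholino of each of the 96 well barcodes, shared by all 4 plates. Per the labels' protocols, wells were lysed with detergent and polyA RNA was made into TruSeq libraries, while the labels' descriptions name 10x Genomics. The submitters' processing notes list TopHat2, GRCm38 and mm10. How counting was done, with or without strand and over reads or molecules, is not given in the sources used here.

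The 10 genes, the gene lists and the tests were chosen with earlier results of these data known. Each symbol matched 1 row, and 98.4% of the 55453 genes matched the GENCODE M21 annotation by symbol. The 16 wells under 2000 detected genes were left out. No label ties wells to embryos, so the plate served as replicate. A run of 344 neighbouring genes, U2af1 to V1rg10, has no count in the morula plates. It holds no member and was kept out of every fit. Sums per plate and morpholino were filtered with filterByExpr, scaled by TMM and fitted with edgeR 4.0.16 (R 4.3.3, limma 3.58.1; robust quasi-likelihood test, Benjamini-Hochberg adjustment over all genes tested, threshold 0.05). Morpholino effects came from 1 fit of 8 sums with the plate as block, because every plate holds wells of both morpholinos. Their deviations from the group means correlated at -0.000704 in the blastocyst and 0.257 in the morula. Stages were compared in separate fits of 4 sums per morpholino, without a block. The models were tested on simulated data. There, 33% of 2-fold changes between the morpholinos passed in the blastocyst and 46% in the morula. For the difference of that effect between the stages, 22% passed. A member that did not pass between the morpholinos may thus still differ by 2-fold.

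Log2 ratios per plate use a prior count of 2, so they are pulled towards 0 where counts are few. Binomial intervals are exact at the 95% level, and intervals of fold changes come from the SE under a normal approximation. Thinning went to 5000, 10000 and 20000 counts. Clusters of blastocyst wells used scanpy 1.11.5 with leidenalg 0.10.2 at a resolution of 1.0 (0.5 and 1.5 as alternatives), on 15 components of 2000 variable genes with 15 neighbours. A name required 3 or more markers among the 10 leading genes. Doublets were not called. Cluster levels and marker sums are CPM of the raw library sizes, without TMM. Named genes are the members, the embryo TEAD4 targets, up to 4 passing genes per list and comparison, and the gene most like each member. Alternatives were RLE size factors, DESeq2 1.42.0, limma voom, no filter on low counts, every well, a minimum of 4000 genes, wells that held Xist but no Y-linked count, the block dropped or added, each plate left out, the plates of 1 stage alone, and each member's highest well left out. A fit of protein-coding genes without ribosomal proteins was chosen after seeing the data. Python 3.11.15, numpy 2.4.6, pandas 2.3.3, scipy 1.17.1 and matplotlib 3.10.9 were used for the rest.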

Additional observations from a re-analysis of the deposited data

Results flagged for a closer look

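Wwtr1 was set apart because its difference between the morpholinos took opposite signs in the 2 stages. The effect in the blastocyst minus the effect in the morula was -0.78 on the log2 scale (SE 0.27, edgeR, adjusted p = 0.589). NKX1-2 wells were below control wells in 2 of 2 blastocyst plates and above them in 2 of 2 morula plates. The difference lay between -1.02 and -0.56 over 14 alternatives and passed in none of them (adjusted p from 0.16 to 1).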

How the results depend on the processing

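Tead4 and Yap1 passed between stages in NKX1-2 and in control wells under all 14 alternatives of each comparison. Of 252 counts of calls under alternatives, 196 stayed within 1.5 times the count reported and 56 did not, and 28 single values changed sign. The cause of these changes was not tested. A fit without 1 plate leaves a lone plate in that stage, which is assumed to vary like the others.

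For the number of all genes passing, DESeq2 gave 20 for the morpholinos in the blastocyst, 15 in the morula, 60 on average and 1 for the difference between stages, and 2998 between stages in NKX1-2 and 2513 in control wells. Limma voom gave 50 in the blastocyst and 1 for the difference. No filter on low counts gave 254 in the blastocyst, 179 in the morula, 532 on average and 27 for the difference. Wells that held Xist but no Y-linked count gave 14 in the blastocyst, 8 in the morula, 36 on average and 0 for the difference, and 2684 between stages in NKX1-2 and 1602 in control wells. The plates of 1 stage alone gave 123 in the blastocyst and 834 in the morula. Every well, and protein-coding genes without ribosomal proteins, gave 1 for the difference. With a plate left out, the number ranged from 99 to 635 in the blastocyst, from 13 to 838 in the morula, from 92 to 1071 on average, from 4 to 252 for the difference, from 2266 to 3592 between stages in NKX1-2 wells and from 2586 to 4213 in control wells.

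Without the plate as a replicate block, 43 genes passed in the blastocyst, 34 in the morula, 185 on average and 1 for the difference, and 0 members in each. The replicate number is not taken to pair plates across stages, since deviations correlated at -0.00201 in NKX1-2 and 0.0251 in control wells. As a replicate block it made 1 member higher in NKX1-2 wells, Amot (0.59, adjusted p = 0.033), and 2 in control wells, Amot and Amotl2 (1.00, adjusted p = 0.0411).

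Members lower by morpholino numbered 1 in the morula with morula plates alone and 1 on average with no filter. With a plate left out they numbered 0 to 1 in the morula, 0 to 1 in the blastocyst and 0 to 2 on average. Members higher between stages numbered 0 to 1 in NKX1-2 and 0 to 2 in control wells with a plate left out, and 0 in control wells that held Xist but no Y-linked count.

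No value exists for Lats1 in any fit of wells that held Xist but no Y-linked count, nor there for Tead2 between stages and for Lats2 between stages in NKX1-2 wells. DESeq2 gave no adjusted p to 4 members for the morpholinos in each stage and to 5 on average. With a plate left out, signs changed for the blastocyst effect of Lats1 (-0.83 to 1.13), Lats2 (-1.18 to 0.14), Amot (-0.63 to 0.10), Amotl2 (-1.76 to 0.10), Cdx2 (-0.19 to 0.02), Krt8 (-0.22 to 0.70) and Sox2 (-0.10 to 2.11). They changed for the morula effect of Tead1 (-0.50 to 0.01), Tead2 (-0.45 to 0.15), Lats1 (-1.37 to 0.23), Amot (-0.31 to 0.35), Amotl2 (-0.52 to 0.47) and Krt8 (-0.04 to 0.89). Between stages they changed for Lats1 (-0.14 to 1.12), Lats2 (-1.02 to 0.18) and Amotl2 (-0.10 to 0.61) in NKX1-2 wells, and for Lats1 (-0.73 to 0.22) and Sox2 (-0.59 to 2.49) in control wells. In wells that held Xist but no Y-linked count they changed for the blastocyst effect of Tead4 (0.12), Lats2 (0.15) and Amotl2 (0.19), the morula effect of Amotl2 (0.39) and Krt8 (-0.61), and the average effect of Tead4 (0.05). Without its highest well, Lats1 had a blastocyst effect of -0.08. Depth limits Lats1, Lats2 and Tead2 most, at 4 to 42 counts per sum.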
